A study of Mus musculus and Bos taurus with 6 samples.

Results

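The miRNA cluster of miR-532, miR-188, miR-362, miR-501 and miR-500 is a group of genes that lie within 1 intron of Clcn5, the gene of a chloride and proton exchanger. Its members were taken from the deposited lists by name, as every line with a mouse (mmu-) or bovine (bta-) prefix that is called miR-532, miR-188, miR-362, miR-500, miR-501 or miR-660, with either arm. This gave 10 of the 1750 lines of the mouse list and 7 of the 1539 lines of the bovine list, 17 of 3289 in all. The mouse members were mmu-miR-532-5p, mmu-miR-532-3p, mmu-miR-188-5p, mmu-miR-188-3p, mmu-miR-362-5p, mmu-miR-362-3p, mmu-miR-501-5p, mmu-miR-501-3p, mmu-miR-500-5p and mmu-miR-500-3p. The bovine members were bta-miR-532, bta-miR-188, bta-miR-362-5p, bta-miR-362-3p, bta-miR-500, bta-miR-660 and a line named mmu-miR-188-3p. No miR-660 line stood in the mouse list and no miR-501 line in the bovine list.

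The study sequenced small RNA of mammary glands in lactation, in 3 groups of 2 libraries. The mouse libraries held total small RNA of abdominal glands of FVB/N mice at day 12 of lactation. The AGO2 libraries held small RNA from glands of FVB/N mice at the same day, co-precipitated with a monoclonal antibody to Argonaute 2, and which animal gave which library is not stated. The bovine libraries held RNA of Holstein cows in mid-lactation on the "low forage" diet, each a pool of biopsies from 2 cows, and were isolated with another kit. The deposited values were read counts, which summed to 8391916 to 9299807 per mouse library, 3909166 to 5041406 per AGO2 library and 9402483 to 10613807 per bovine library. Levels are given in RPM, counts scaled by the sum of their library. The precipitate and the gland were scaled to the same total, so RPM show how each pool of RNA was composed and not how much of a miRNA was bound.

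A miRNA is cut from a hairpin in 2 steps, by Drosha in the nucleus and by Dicer in the cytoplasm, which leaves a duplex of the 5p and the 3p arm. The cluster is found on the X chromosome of many placental mammals. One arm is kept by an Argonaute protein as the guide and the other is usually degraded. The guide finds its target messenger RNA mainly through its seed, taken here as bases 2 to 8. miRNA of one intron can be made from 1 host transcript, and then differ in level through processing, strand choice and decay.

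In mouse the 5 hairpins lay on the minus strand of chromosome X (GRCm38), in the order Mir532 (chrX:7248402-7248497), Mir188 (chrX:7247989-7248056), Mir362 (chrX:7241982-7242046), Mir501 (chrX:7241243-7241351) and Mir500 (chrX:7237683-7237774) in the direction of transcription. They spanned 10815 bases. All 5 fell in the same intron of 103648 bases of Clcn5 (chrX:7153810-7319358, minus strand). In the GENCODE annotation this was intron 3 of transcripts Clcn5-202 and Clcn5-204 and intron 2 of Clcn5-203. Mir532 and Mir188 were separated by 345 bases and Mir362 and Mir501 by 630 bases, with 5942 bases between the pairs and 3468 bases from Mir501 to Mir500.

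**Figure D1:**
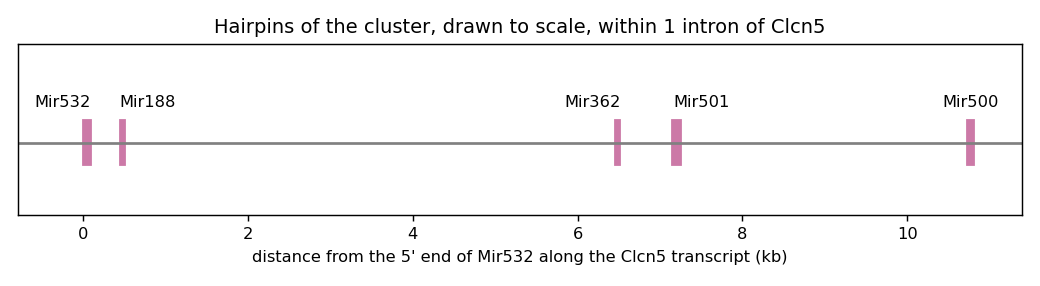
Position of the 5 mouse hairpins along the Clcn5 transcript, as distance in kb from the 5' end of Mir532. Boxes are the annotated hairpins drawn to scale, in 2 close pairs and a single hairpin at the far end.

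The mature sequences are shown because the members fall into seed groups that cut across the hairpins. They are printed as the deposited lists give them, with the seed in capitals. The mouse 5p arms were:
mmu-miR-532-5p: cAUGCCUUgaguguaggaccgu
mmu-miR-188-5p: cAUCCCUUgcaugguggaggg
mmu-miR-362-5p: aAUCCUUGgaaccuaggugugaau
mmu-miR-501-5p: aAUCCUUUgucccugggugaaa
mmu-miR-500-5p: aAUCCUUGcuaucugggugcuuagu

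The mouse 3p arms were:
mmu-miR-532-3p: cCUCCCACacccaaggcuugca
mmu-miR-188-3p: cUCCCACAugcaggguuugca
mmu-miR-362-3p: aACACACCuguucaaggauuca
mmu-miR-501-3p: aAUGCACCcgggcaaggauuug
mmu-miR-500-3p: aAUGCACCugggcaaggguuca

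The RefSeq table of GRCm38 held 9 of the 10 mouse members, each with the same sequence. mmu-miR-500-3p and mmu-miR-501-3p had the same seed and differed at 4 of 22 bases, which were U9C, G18A, C21U and A22G counted from the 5' end of mmu-miR-500-3p. mmu-miR-362-5p and mmu-miR-500-5p also had 1 seed in common. The seed of mmu-miR-362-3p was the one of mmu-miR-329-3p, a miRNA from another locus that reached at most 6.35 RPM in any mouse or AGO2 library. Within each list, no other line had a sequence identical to a member.

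Both arms of 3 hairpins on which the results turn are shown in capitals within the RefSeq hairpin:
Mir532: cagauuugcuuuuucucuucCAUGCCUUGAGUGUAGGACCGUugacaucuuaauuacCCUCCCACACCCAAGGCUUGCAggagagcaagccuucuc
Mir362: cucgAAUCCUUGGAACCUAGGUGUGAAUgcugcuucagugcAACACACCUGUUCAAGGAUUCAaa
Mir500: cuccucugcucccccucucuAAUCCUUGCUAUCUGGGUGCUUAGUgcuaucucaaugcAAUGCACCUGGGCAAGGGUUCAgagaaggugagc

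The bovine members, with 2 lines of other prefixes that the authors placed on bovine hairpins, were:
bta-miR-532: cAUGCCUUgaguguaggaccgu
bta-miR-188: cAUCCCUUgcaugguggagggu
bta-miR-362-5p: aAUCCUUGgaaccuaggugugagu
bta-miR-362-3p: aACACACCuauucaaggauuc
bta-miR-500: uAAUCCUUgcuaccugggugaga
bta-miR-660: uACCCAUUgcauaucggagcug
hsa-miR-532-3p: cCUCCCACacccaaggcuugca
hsa-miR-500a-3p: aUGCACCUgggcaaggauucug

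miR-532 had the same sequence in both species on either arm. The 5p arm of miR-188 was identical over the 21 bases of the mouse form. miR-362-5p differed by A23G and miR-362-3p by G10A, counted on the mouse sequence, both outside the seed. bta-miR-500 started 1 base before the mouse form, so that its seed was moved by 1 base, and it differed from mmu-miR-500-5p at 4 of 22 compared bases. It also differed from mmu-miR-501-5p at 4 of 22. Of the 3p arms, mmu-miR-500-3p differed from hsa-miR-500a-3p at 2 of 21 compared bases and mmu-miR-501-3p at 3 of 21. bta-miR-502a, a bovine line outside the rule, was nearer to mmu-miR-500-3p, with the same seed and 1 difference in 22 bases (G18A). The sequence thus does not settle which mouse hairpin is the counterpart of bta-miR-500, and the match by name was used.

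In the mouse gland the cluster was read mainly through 3 miRNA. mmu-miR-362-5p was counted at 621 and 337 RPM in mouse libraries 1 and 2, mmu-miR-532-5p at 452 and 405 RPM, and mmu-miR-500-3p at 411 and 232 RPM. Their ranges overlapped, and the order of the first pair turned between the libraries. mmu-miR-501-3p followed at 130 and 46.4 RPM. These 4 are the more abundant arms of their hairpins, the 5p arm for mir-532 and mir-362 and the 3p arm for mir-500 and mir-501.

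The opposite arms were scarcer. mmu-miR-501-5p was counted at 47.6 and 21.8 RPM and mmu-miR-188-5p, the main arm of the least abundant hairpin, at 29.7 and 35.7 RPM. mmu-miR-532-3p reached 17.2 and 11.7 RPM and mmu-miR-362-3p 14.0 and 17.3 RPM. mmu-miR-188-3p was counted at 8.06 and 7.63 RPM and mmu-miR-500-5p at 5.48 and 4.17 RPM, the lowest of the cluster in both mouse libraries. Summed, the 10 members made up 1736 and 1119 RPM, 0.174% and 0.112% of all counts. By rank among the 1750 lines, mmu-miR-362-5p stood at places 93 and 110 and mmu-miR-532-5p at 108 and 100.

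The 2 mouse libraries did not differ by the same factor for each member. mmu-miR-501-3p was 2.81-fold higher in library 1 than in library 2, and mmu-miR-532-5p 1.11-fold higher. mmu-miR-188-5p and mmu-miR-362-3p were higher in library 2, by 1.20-fold and 1.24-fold. With 2 libraries per group, differences between groups are read against this spread.

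**Figure D2:**
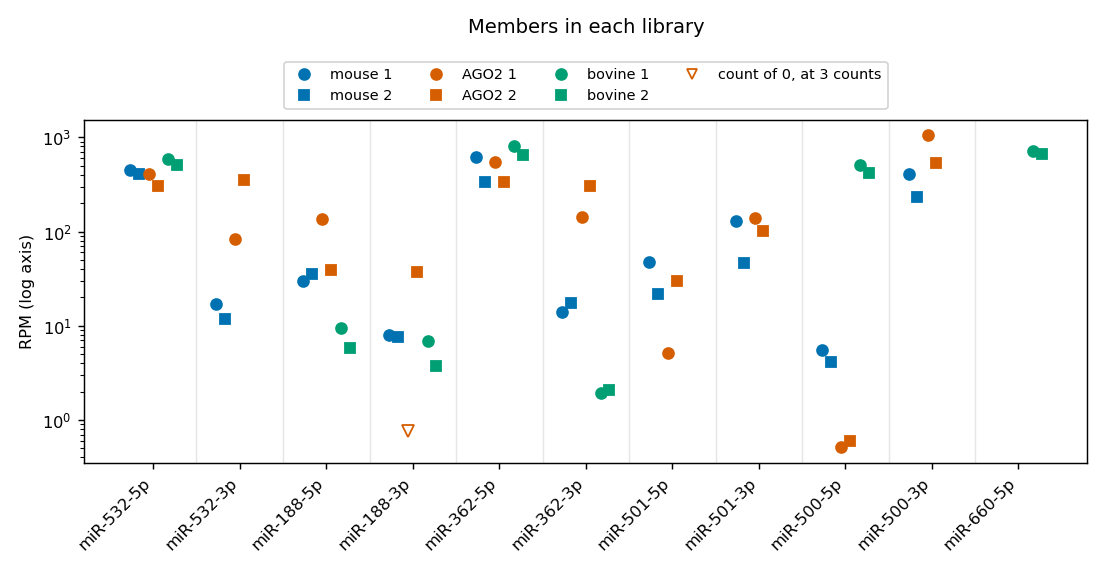
Level of each member in RPM on a log axis, with 1 point per library (circle, library 1, square, library 2; the open triangle marks a count of 0, drawn at the level of 3 counts). Within AGO2, miR-532-3p and miR-362-3p sit above both mouse libraries while miR-532-5p and miR-362-5p overlap with them, and bovine miR-500-5p sits at 417 and 512 RPM against 4.17 and 5.48 RPM in mouse.

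The comparison of the AGO2 libraries with the mouse libraries asks which members were enriched or depleted in the precipitate of Argonaute 2. The study describes no control precipitate, so bound miRNA and carry-over cannot be told apart. The 3p arms of mir-532 and mir-362 rose by 17.3-fold and 16.0-fold in the fit, whereas no difference was detected for their 5p arms, the more abundant ones in mouse. mmu-miR-532-3p was counted at 83.4 and 353 RPM in AGO2 libraries 1 and 2, against 17.2 and 11.7 RPM in mouse. The AGO2 values were both above the mouse values, and were themselves 4.23-fold apart. The log2 fold change was 4.11 ± 0.81 (SE), with an adjusted p of 0.00087 in the edgeR quasi-likelihood test over 299 miRNA. mmu-miR-362-3p was counted at 142 and 302 RPM in AGO2, and its log2 fold change was 4.00 ± 0.74 (adjusted p = 0.000543, edgeR). Both passed the filter on low counts only through the AGO2 libraries. Without this filter, their log2 fold changes were 3.99 (adjusted p = 0.000226, edgeR) and 3.89 (adjusted p = 0.000301, edgeR), so that both were also called there.

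The 5p arms of the same hairpins gave values near the middle of the list. mmu-miR-532-5p was counted at 412 and 302 RPM in AGO2, a log2 fold change of -0.12 ± 0.62 (adjusted p = 0.903, edgeR), which was the median of the 299 tested. mmu-miR-362-5p was counted at 549 and 333 RPM, a log2 fold change of 0.03 ± 0.63 (adjusted p = 0.971, edgeR). Both groups overlapped for either miRNA.

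mmu-miR-500-3p, the main arm of mir-500, was counted at 1048 and 531.6 RPM in AGO2, against 411 and 232 RPM in mouse. Both AGO2 libraries were above both mouse libraries, and it was the most abundant member in each of them. Its log2 fold change of 1.44 ± 0.65 did not pass in edgeR (adjusted p = 0.09), and passed in DESeq2 (log2 fold change 1.56, adjusted p = 0.016). mmu-miR-501-3p, which has the same seed, was counted at 138 and 102 RPM in AGO2, overlapping with the mouse libraries (log2 fold change 0.60 ± 0.67, adjusted p = 0.483, edgeR). Added together, the miRNA with this seed made up 541 and 278 RPM in mouse and 1186 and 633 RPM in AGO2.

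Of the 5p arms of the distal hairpins, mmu-miR-500-5p was low in the precipitate and mmu-miR-501-5p overlapped with mouse. mmu-miR-500-5p was read 2 and 3 times in the AGO2 libraries, against 51 and 35 times in the mouse libraries. It was the 1 mouse member that did not pass the filter and was not tested. Over the pooled reads its level in AGO2 was 0.115 of that in mouse, with an exact 95% interval of 0.0364 to 0.279 for counting error alone. mmu-miR-501-5p was counted at 5.12 and 30.2 RPM in AGO2, and only library 1 lay below the mouse range (log2 fold change -0.76 ± 1.16, adjusted p = 0.602, edgeR).

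miR-188 has been studied in the differentiation of bone and fat cells. Its 3p arm lay on opposite sides of the mouse values in the 2 AGO2 libraries. mmu-miR-188-5p was counted at 136 and 38.7 RPM, both above the mouse values (log2 fold change 1.53 ± 0.80, adjusted p = 0.147, edgeR). mmu-miR-188-3p had no read in AGO2 library 1, which allows up to 0.767 RPM, and 37.3 RPM in library 2. Its log2 fold change of 1.46 ± 1.72 (adjusted p = 0.506, edgeR) has no fixed direction. In AGO2 library 1 it was at least 10.2-fold lower than the mouse mean of 7.85 RPM, taking 3 counts as the limit, and without that library its log2 fold change was 2.78.

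Of the 9 members tested, 2 were higher in AGO2 (22.2%) and 0 were lower in edgeR, with 0 lower at an unadjusted p under 0.05 and 0 in DESeq2. Over all 299 miRNA, 27.8% passed in either direction and 15.4% were higher. The count of members is near the background. The median of the tested members was 1.44 and that of all miRNA -0.12. However, 3 members, the 3p arms of mir-532, mir-362 and mir-188, entered the test only through AGO2 libraries and mmu-miR-500-5p did not enter it. The 2 members called higher are among these 3, so nothing is read from the members' median or from their count by direction. Over all mouse miRNA tested, the median was 0.18 for 122 3p arms and -0.71 for 141 5p arms. Scarce arms outside the cluster, such as mmu-let-7b-3p, likewise entered the test only through AGO2 libraries. These medians therefore describe the tested list only. Scaling by the size factors of DESeq2 moved the median of all miRNA by 0.11 and library totals moved it by -0.15 on the log2 scale; the values of mmu-miR-532-3p and mmu-miR-362-3p stayed between 3.83 and 4.24 under both.

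**Figure D3:**
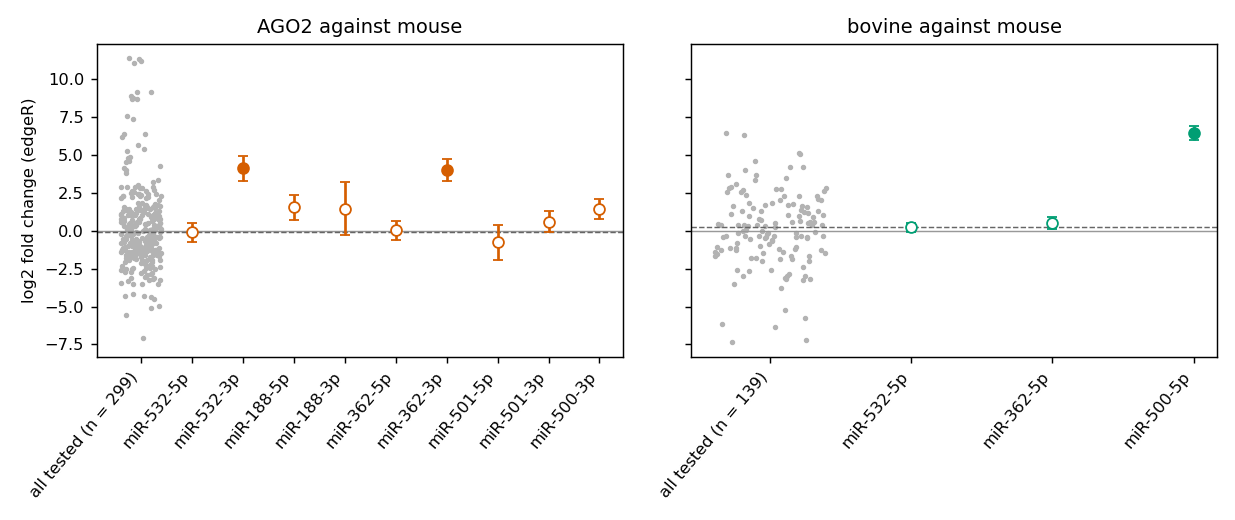
log2 fold change of the members with its SE (edgeR), for AGO2 against mouse on the left and bovine against mouse on the right; filled points passed at an adjusted p of 0.05, grey points are all miRNA tested and the dashed line is their median. miR-532-3p and miR-362-3p on the left, at 4.11 and 4.00, and miR-500-5p on the right, at 6.44, are the members that passed.

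The balance of the arms shows the same data within each hairpin, where the depth of a library cancels. In mouse, 96.3% and 97.2% of the reads of mir-532 came from the 5p arm, and in AGO2 83.2% and 46.1%. The exact 95% intervals, which cover counting error only, were 81.4% to 84.8% and 44.4% to 47.9% in AGO2, so the 2 precipitates differed by far more than counting error. For mir-362 the 5p share was 97.8% and 95.1% in mouse and 79.5% and 52.5% in AGO2. In AGO2 library 2, the arms of both hairpins were thus read about equally often, and in AGO2 library 1 they were not. AGO2 library 2 had counts on 1080 of the 1750 lines and AGO2 library 1 on 839. The study also reports more unique sequences in its second AGO2 sample, many of them with few reads. The part of this in the arm shares was not tested.

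For mir-500 the 5p share was 1.32% and 1.77% in mouse and 0.0488% and 0.112% in AGO2. For mir-501 it was 26.8% and 32.0% in mouse and 3.58% and 22.9% in AGO2. In 4 of the 5 hairpins both AGO2 libraries lay further toward the 3p arm than both mouse libraries, whichever arm was the main one in mouse. The same held for 52.3% of the 130 hairpins with enough reads. mir-188 did not share this pattern, with 78.6% and 82.4% in mouse and 100% and 50.9% in AGO2. Over the whole cluster, the 5p arms made up 66.6% and 71.8% of the members' reads in mouse and 43.9% and 34.7% in AGO2, while all members together summed to 2514 and 2031 RPM in AGO2. The 5p arms alone summed to 1102 and 705 RPM in AGO2, overlapping with 1156 and 804 RPM in mouse, and the 3p arms to 1411 and 1326 RPM, above the 580 and 315 RPM of mouse.

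**Figure D4:**
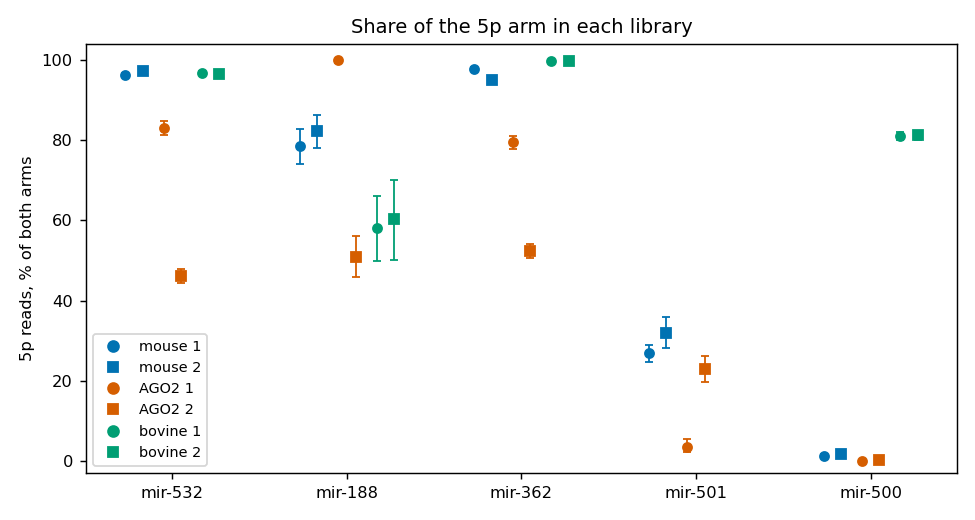
Reads from the 5p arm as a percentage of the reads of both arms of a hairpin, with 1 point per library and its exact 95% interval (counting error only). The AGO2 points of mir-532, mir-362, mir-501 and mir-500 lie below both mouse points, and the bovine points of mir-500 lie at 81.0% and 81.2% against 1.32% and 1.77% in mouse.

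The change in log2(5p/3p) was tested with limma over 130 hairpins. It was -3.87 ± 0.95 (SE) for mir-532 (adjusted p = 0.0459, limma) and -3.83 ± 0.85 for mir-362 (adjusted p = 0.0445, limma). For mir-500 it was -4.13 ± 1.56 (adjusted p = 0.129, limma), for mir-501 -1.97 ± 1.18 (adjusted p = 0.264, limma) and for mir-188 3.01 ± 3.29 (adjusted p = 0.517, limma). The value of mir-500 is larger in size than those that passed, and rests on 2 and 3 reads of its 5p arm in AGO2.

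Of the 5 hairpins, 2 passed, both toward 3p (40.0%), against 20% of all hairpins in either direction and 15.4% toward 3p. The members' median change was -3.83 and that of all 130 hairpins -1.43. Among the 91 hairpins with more 5p than 3p reads in mouse the median was -1.60, and among the 39 with more 3p it was -1.19. mir-500, mir-532 and mir-362 stood at places 26, 31 and 32 of 130, counted from the change furthest toward 3p. The calls for mir-532 and mir-362 were close to the threshold. Without mouse library 1 their adjusted p was 0.234 for both, and without mouse library 2 it was 0.274 for mir-532 and 0.153 for mir-362 (limma). With no filter on low counts, over 284 hairpins, it was 0.139 and 0.119 (limma), and diffSpliceDGE of edgeR, which takes the arms as parts of 1 gene, gave 0.016 and 0.0141. Without AGO2 library 2 all 5 hairpins passed, but so did 55.4% of the 130, and the call of mir-188 toward 5p then rested on a 3p count of 0.

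**Figure D5:**
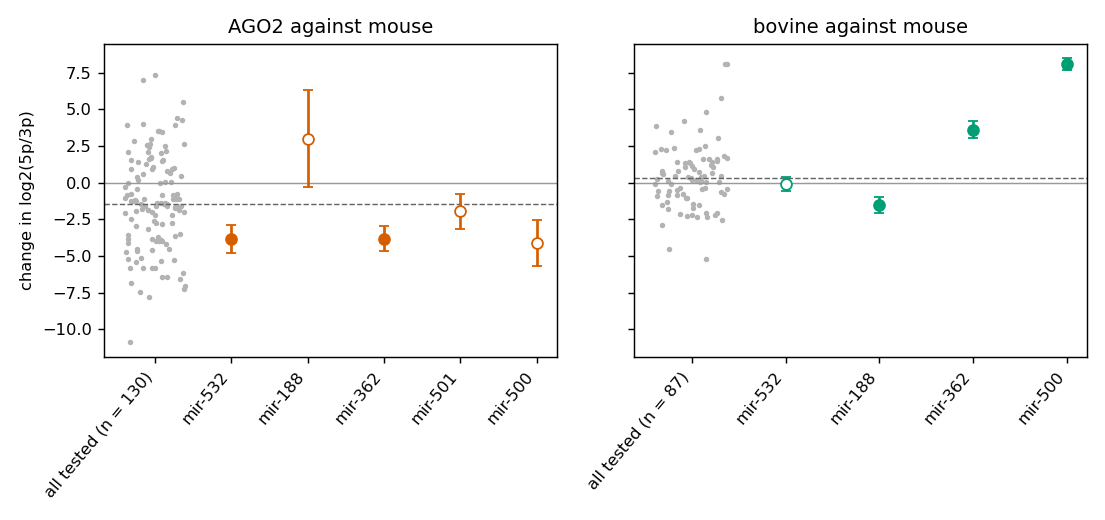
Change in log2(5p/3p) of each hairpin with its SE (limma), for AGO2 against mouse on the left and bovine against mouse on the right; filled points passed at an adjusted p of 0.05, grey points are all hairpins tested and the dashed line is their median. In AGO2 mir-532 and mir-362 passed at -3.87 and -3.83, and in bovine mir-500 passed at 8.10, mir-362 at 3.60 and mir-188 at -1.51.

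Markers of 6 cell types were set beside these values, all detected except mmu-miR-206-3p, at 0 in mouse library 2. The 6 epithelial markers summed to 159803 to 188746 RPM in mouse and 338037 to 368284 RPM in AGO2. This sum was carried by mmu-miR-200a-3p and mmu-miR-141-3p, with log2 fold changes of 1.58 and 1.34, whereas mmu-miR-200b-3p and mmu-miR-200c-3p fell, by 1.43 and 1.71 on the log2 scale (adjusted p = 0.000388, 0.00976, 0.0174 and 0.0318, edgeR). Between mouse and AGO2, erythroid markers summed to 6504 to 13343 against 15527 to 32468 RPM, leukocyte markers to 1263 to 2123 against 2351 to 2971 RPM, and stromal markers to 54217 to 70847 against 34223 to 36639 RPM. Muscle markers summed to 163 to 213 against 27.9 to 70.2 RPM, and endothelial markers, at 24194 to 34265 against 28819 to 29280 RPM, overlapped. The endothelial sum hid opposite changes, with mmu-miR-126a-3p at -1.30 and mmu-miR-126a-5p at 1.18 on the log2 scale (adjusted p = 0.0274 and 0.0422, edgeR). In the muscle sum, mmu-miR-1a-3p was at -2.82 (adjusted p = 0.0067, edgeR). There mmu-miR-133a-3p, at 2.69, did not pass (adjusted p = 0.152, edgeR). Leukocyte and stromal markers also had changes of either sign, and none of these passed singly. The part of the markers in the levels of the members was not tested. The AGO2 and mouse libraries differ by the precipitation, so the marker sums are not a measure of cell shares between them. In bulk tissue, fewer cells of a type and less RNA per cell cannot be told apart either.

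The mature sequence of 4 of the 5 mouse 3p members, and of 1 of the 5 mouse 5p members, ends in A. Reads were cleaned of a 3' stretch of A, so that such an end cannot be told from the added tail. All libraries were cleaned in the same way, and the part of this step in the arm shares was not tested.

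The comparison of bovine with mouse asks which members differ in level between the lactating glands of the species. The line named miR-500 was far higher in bovine than its namesake in mouse, and no difference was detected for the abundant 5p arms of mir-532 and mir-362. bta-miR-500 was counted at 512 and 417 RPM in bovine libraries 1 and 2, against 5.48 and 4.17 RPM for mmu-miR-500-5p in mouse. There was no overlap, and the log2 fold change was 6.44 ± 0.45 (adjusted p = 0.000552, edgeR over 139 miRNA matched by name and arm). It passed the filter of 100 RPM only through the bovine libraries, and without the filter its log2 fold change was 5.96 (adjusted p = 0.000154, edgeR). As the sequence leaves its mouse counterpart unsettled, mmu-miR-501-5p at 47.6 and 21.8 RPM is the other arm to set beside it. The bovine mean was 96.2 times that of mmu-miR-500-5p and 13.4 times that of mmu-miR-501-5p, and the second ratio was not tested.

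bta-miR-532 was counted at 585 and 515 RPM in bovine, slightly above the 452 and 405 RPM of mmu-miR-532-5p. The log2 fold change was 0.21 ± 0.32 (adjusted p = 0.565, edgeR), the median of the 139 tested. bta-miR-362-5p was counted at 809 and 654 RPM and had a log2 fold change of 0.48 ± 0.40 (adjusted p = 0.339, edgeR). Both bovine libraries were above both mouse libraries for either miRNA, by less than the fit could separate from the spread. Without mouse library 1, the change of miR-362-5p was 0.92 (adjusted p = 0.00565, edgeR).

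miR-188-5p and miR-362-3p had lower levels in bovine. bta-miR-188 was counted at 9.47 and 5.75 RPM, against 29.7 and 35.7 RPM in mouse, and bta-miR-362-3p at 1.91 and 2.07 RPM, against 14.0 and 17.3 RPM. The groups did not overlap for either. Both were under the filter of 100 RPM, and in the fit without it they had log2 fold changes of -2.75 (adjusted p = 0.00305, edgeR) and -3.59 (adjusted p = 0.00169, edgeR). The line named mmu-miR-188-3p was counted at 6.81 and 3.77 RPM in bovine.

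bta-miR-660 was counted at 713 and 667 RPM, second to bta-miR-362-5p in library 1 and above it in library 2. As no mouse line bears its name, it has no counterpart here. All 7 bovine members summed to 2637 and 2264 RPM, against 1736 and 1119 RPM for the 10 mouse members. The sums cover different arms and were not compared by a test.

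Of the 5 bovine members matched by name and arm that have a bta- prefix, 3 passed the filter and 1 of these was called, as higher (33.3%). Over all 139 miRNA, 55.4% were called in either direction and 29.5% as higher. Per the methods of the study, the mice were primiparous and the cows multiparous. The species, the parity, the tissue sampling, the kit and the pooling differ together between the groups and cannot be told apart. In the bovine libraries, epithelial markers summed to 77607 to 79458 RPM and erythroid markers to 1098 to 1709 RPM, below mouse. Endothelial markers at 55972 to 62356 RPM, leukocyte markers at 2553 to 3285 RPM and muscle markers at 727 to 782 RPM lay above mouse, and stromal markers at 63436 to 77751 RPM overlapped. Single epithelial markers differed in direction. miR-200a-3p, miR-200b-3p and miR-429-3p were called lower, miR-141-3p and miR-200c-3p did not pass, and miR-205-5p was higher at 2.33 (adjusted p = 0.00243, edgeR). Among leukocyte markers, miR-150-5p and miR-155-5p were called higher and both arms of miR-142 did not pass. There miR-223-3p was lower at -1.53 (adjusted p = 0.0163, edgeR). The part of the markers was not tested. Of the tested members, miR-500-5p entered only through the bovine libraries, and the filter removed miR-188-5p and miR-362-3p, both lower in bovine. Nothing is therefore read from the members' count or median. The members' median log2 fold change was 0.48 and that of all 139 was 0.21. Scaling moved the latter by -0.19 with the size factors of DESeq2 and by 0.14 with library totals, and miR-500-5p was at 6.26 and 6.58 under these.

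Within hairpins, those named mir-500 were read mainly from opposite arms in the 2 species. The 5p share was 81.0% and 81.2% in bovine, where the 3p arm is the line hsa-miR-500a-3p at 120 and 96.6 RPM, and 1.32% and 1.77% in mouse. The change in log2(5p/3p) was 8.10 ± 0.39 (adjusted p = 4.22e-09, limma over 87 hairpins), the second of 87 toward 5p. hsa-miR-500a-3p and bta-miR-502a, counted at 29.8 and 21.5 RPM, differed at 1 of 21 compared bases, and reads may not be separable between them. With all reads of bta-miR-502a added to the 3p arm, the 5p share was 77.4% and 77.9%. The mouse hairpin mir-501, as near to bta-miR-500 in its 5p sequence, had a 5p share of 26.8% and 32.0%, also below the bovine values. mmu-miR-500-3p differed from hsa-miR-500a-3p at 2 of 21 compared bases. From bta-miR-502a, which has its seed, it differed at 1 of 22. The mouse and bovine hairpins named mir-500 may therefore not be counterparts, and the change of 8.10 holds for the match by name.

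For mir-362 the 5p share was 99.8% and 99.7% in bovine, above the 97.8% and 95.1% of mouse, with a change of 3.60 ± 0.58 (adjusted p = 0.000348, limma). For mir-188 it was 58.2% and 60.4% in bovine, below the mouse shares, with a change of -1.51 ± 0.56 (adjusted p = 0.0474, limma). This call was lost without either bovine library, at adjusted p of 0.413 and 0.396 (limma), and also without the filter (adjusted p = 0.0697, limma) and with diffSpliceDGE (adjusted p = 0.0575, edgeR). For mir-532 it was 96.8% and 96.4% in bovine, within the range of the mouse libraries (-0.08 ± 0.49, adjusted p = 0.905, limma).

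Of these 4 hairpins, 3 passed (75.0%), 2 toward 5p and 1 toward 3p. Over all 87 hairpins 39.1% passed, 24.1% toward 5p and 14.9% toward 3p. The 3p arms of mir-532, mir-188 and mir-500 in bovine came from lines under the prefix of another species. Both comparisons used the same mouse libraries, so the AGO2 and bovine changes of a member are not independent. For mir-362 they were -3.83 and 3.60, for mir-532 -3.87 and -0.08, and for mir-500 -4.13 and 8.10.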

How the data were processed

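Small RNA of mouse glands, AGO2 precipitates and pooled bovine biopsies was sequenced, with 2 libraries per group. Per the labels and the methods of the study, the authors trimmed poly-A ends, sized reads at 17 to 28 nt and assigned them with miRDeep2 to miRBase 20 and predicted precursors (builds GRCm38 and UMD3.1). The deposited counts are whole reads per mature miRNA, and a deposited normalised column was not used. RPM were taken over all counts of a library, and a count of 0 allows up to 3 counts.

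Tests on counts used edgeR 4.0.16 under R 4.3.3 (TMM, quasi-likelihood test, Benjamini-Hochberg adjustment). The AGO2 test kept miRNA whose highest count over the 4 libraries exceeded 175. The bovine test kept miRNA matched by name and arm that reached 100 RPM in any library. log2 ratios of the arms, with 0.5 counts added, were tested with limma 3.58.1 where each arm had a mean of 10 counts. The rule for named miRNA takes every member. p-values measure only the spread between these libraries. Alternatives were DESeq2 1.42.0, other scalings, filters and pseudocounts, diffSpliceDGE, leaving out each library and, added later, a replicate block. The scripts were tested on simulated data. The members and lists were chosen with earlier results of these data known.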

Additional observations from a re-analysis of the deposited data

How the results depend on the processing

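The labels pair no libraries. A replicate block by the study's sample numbers for mouse and AGO2, chosen after seeing the data, called 3 members and 121 of 299 miRNA in abundance and 2 hairpins of the cluster and 37 of 130 in arm balance. It moved mmu-miR-188-3p to -0.77 and called mmu-miR-500-3p at 1.43 (adjusted p = 0.0232, edgeR). Deviations of same-numbered libraries had a correlation of 0.26 over 299 miRNA, a hint from the data only. Of 183 values of single members and hairpins under an alternative, 152 kept direction and call, 10 lost and 8 gained the call, and 13 changed sign. Without 1 library, the value ranged from -8.81 (against a count of 0, so no bound) to 2.78 for mmu-miR-188-3p, from -1.99 to 8.01 for mir-188, from -0.31 to 0.49 for mmu-miR-362-5p, from -2.64 to 0.35 for mmu-miR-501-5p and from -0.15 to 0.046 for mmu-miR-532-5p in AGO2, and from -0.28 to 0.12 for mir-532 in bovine. The value of mmu-miR-362-5p in AGO2 was -0.12 with library totals and -0.18 without the filter. The value of miR-532-5p in bovine was -0.27 without the filter and -0.0099 with other prefixes matched. The cause was not tested.

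Without the filter, 3 bovine members of 5 and 124 miRNA of 229 were called, and in the AGO2 arm balance 0 members and 1 hairpin of 284 were called in limma, with 3 members at an unadjusted p under 0.05. With the filter, diffSpliceDGE called 2 members. Leaving out 1 library gave 50 to 90 calls in AGO2 abundance, 48 to 108 in bovine abundance with 1 to 2 members, 2 to 72 hairpins in the AGO2 arm balance with 0 to 5 members, and 13 to 61 hairpins in the bovine arm balance. The lone library of a group was then assumed to vary like the others. Members with few reads, such as mmu-miR-500-5p in AGO2, are limited by depth.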
